A study of Homo sapiens with 6 samples.

Results

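Toll-like receptors are transmembrane proteins that recognise microbial molecules and some molecules released from damaged tissue. The set described here holds receptor genes of this family together with LY96 and CD14, whose proteins present lipopolysaccharide to TLR4, and MYD88 and IRAK2, which carry the signal inside the cell. It was chosen by gene name from 10 symbols, TLR1, TLR2, TLR3, TLR4, TLR5, TLR6, LY96, CD14, MYD88 and IRAK2, and each gene was read from its brightest probe set with exactly 1 symbol. Of these, 9 were measured among 18417 genes in all, each of the 9 by a single probe set, and TLR5 is not analysed here. The series holds 6 Affymetrix HuGene arrays of total RNA, with untransfected MCF10A on 3 arrays and the MCF10A-SNAI1 line on 3. MCF10A is an immortalised, untransformed line of human mammary epithelial cells. MCF10A-SNAI1 cells had been transfected with a plasmid for Flag-tagged SNAI1, driven by a CMV enhancer and a chicken beta-actin promoter, and selected with puromycin. Both lines are kept in mammary epithelial growth medium with cholera toxin according to the article. According to the article, the MCF10A cells were ATCC cells given by a colleague in Bonn, and the SNAI1 line was made at the University of Florida. Whether these MCF10A cells are the parent stock is not stated. Effects of SNAI1 itself cannot be told apart from those of puromycin selection, the vector, the SNAI1 line's own passage history or the MCF10A stock. The sources used here do not say whether the SNAI1 line is a clone or a pool.

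The receptors sit at the cell surface (TLR1, TLR2, TLR4, TLR5 and TLR6) or in endosomes (TLR3). TLR2 pairs with TLR1 or TLR6 to bind bacterial lipopeptides, TLR3 binds double-stranded RNA, TLR4 binds lipopolysaccharide together with MD-2, the product of LY96, and TLR5 binds flagellin. Every Toll-like receptor except TLR3 can signal through the adaptor MYD88, which assembles IRAK kinases and so switches on NF-kB and MAP kinases, while TLR3, and TLR4 after its uptake, use the adaptor TICAM1 (TRIF). Epithelial cells use this system as a first line of defence, and LY96 and CD14 are best known from monocytes and macrophages.

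SNAI1, the gene introduced, was at 5.80, 5.73 and 5.77 in MCF10A and at 10.50, 10.53 and 10.50 in MCF10A-SNAI1 cells (log2 values, as for all levels here), so the labels match the arrays. Array medians lay between 6.04 and 6.09, and the number of arrays limits the precision. Values below 3.94, the 20th percentile of all values, are called dim in what follows, because background correction weighs most on low signals and no other correction was tried. The epithelial markers KRT5, KRT14, CDH1 and EPCAM, the 4 measured of a list of 6, all fell in the MCF10A-SNAI1 line, at log2 fold changes of -2.23 to -4.76. Calls used limma over all probe sets and needed a Benjamini-Hochberg adjusted p below 0.01 with a fold change over 2, the limits set in the article. The article describes the transcriptomes of each line as independently reproduced, and the labels do not say whether they came from separate cultures, so the p-values measure the spread between these arrays.

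Among the 9 measured genes, 2 rose past both thresholds, TLR4 and CD14, and none fell. Over all genes, 3.1% were called higher and 2.54% lower. With no limit on the fold, the same 2 genes were higher and 3 were lower, TLR3, TLR6 and IRAK2, against 12.1% and 11.2% of all genes (adjusted p below 0.01). An unadjusted limma p below 0.05 was reached by 3 of the 9 as higher and 4 as lower, which 21% and 21.3% of all genes did. The methods' t-test called 1 gene higher and none lower. The arrays of the lines did not overlap for 7 of the 9 genes, which was the case for 48.3% of all genes. The median log2 fold change (MCF10A-SNAI1 minus MCF10A) was -0.15 over the 9 genes and -0.013 over all genes. The receptor TLR4 thus stood at one end of a set in which most genes differed by less than 2-fold.

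**Figure D1:**
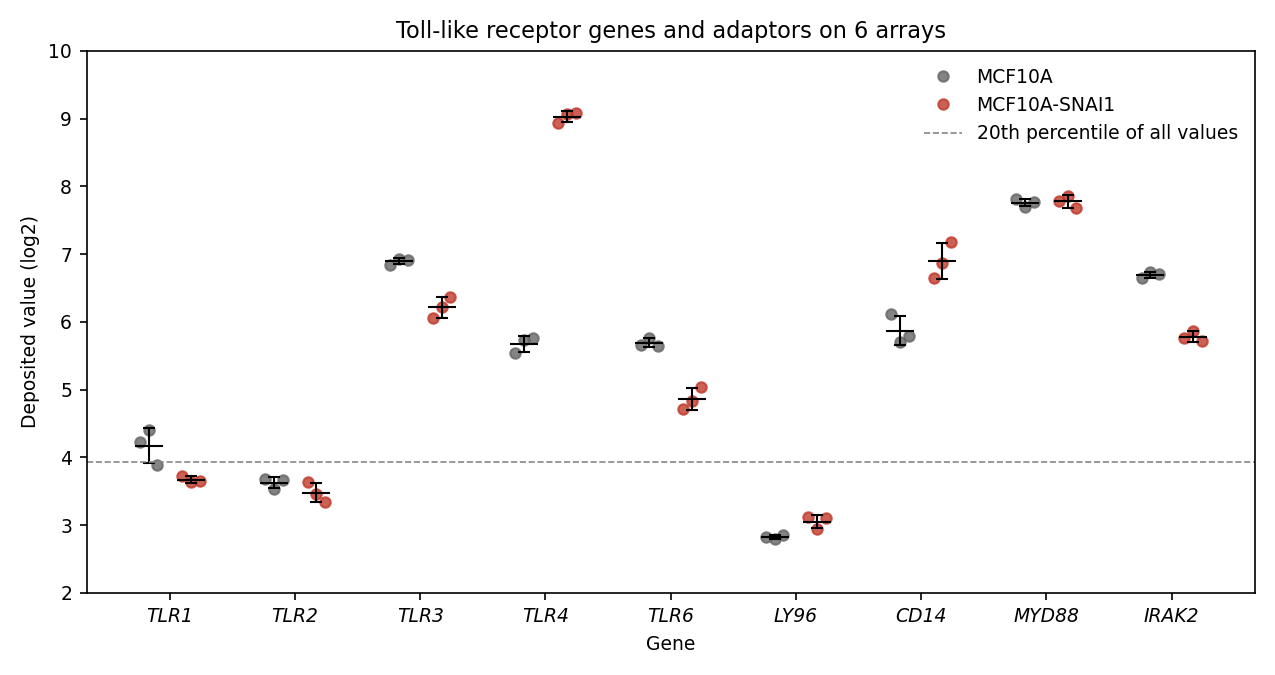
Deposited log2 values of the 9 measured genes on each array of MCF10A (grey) and MCF10A-SNAI1 (red), with each line's mean and SD (n = 3) in black and the 20th percentile of all values dashed. TLR4 goes from 5.67 to 9.03, and LY96 and TLR2 lie under the dashed line on all arrays.

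TLR4, the receptor for lipopolysaccharide, was measured at 5.54, 5.72 and 5.76 in MCF10A and at 8.93, 9.07 and 9.08 in MCF10A-SNAI1 cells. The lines lay far apart, and the arrays of each line lay close together. The difference was 10.2-fold (log2 fold change 3.35, 95% interval 3.16 to 3.55, adjusted p = 7.21e-07 from limma). The two-sided exact permutation p of this gene was 0.1, which is the lower bound for 3 arrays in each line. The log2 fold change of TLR4 lay between 3.29 and 3.40 when each array was left out in turn, and it was called in every alternative tried. In a bulk sample, more cells with the transcript and more transcript in each cell cannot be told apart.

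The 250 bases before the TLR4 start in RefSeq (GRCh38.p14, chr9:117704153-117704402, plus strand) are shown because TLR4 had the largest change of the 9 genes and this window holds repeated matches to the PU box, the core of the site bound by the myeloid factor PU.1. Capitals mark GAGGAA or its reverse complement TTCCTC.
TLR4: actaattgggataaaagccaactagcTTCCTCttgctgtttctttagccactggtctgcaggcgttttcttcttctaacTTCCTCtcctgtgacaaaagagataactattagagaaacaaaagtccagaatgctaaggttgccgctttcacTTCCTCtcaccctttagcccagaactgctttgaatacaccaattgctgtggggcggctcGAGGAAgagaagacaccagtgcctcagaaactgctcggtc
The window had 4 matches, starting 224, 171, 99 and 40 bases before the start. At least 1 match was present in 23.6% of 35116 promoter windows of the same length in the table, and at least 4 in 0.0513%. The limit of 4 is the count of the TLR4 window itself, so this share is not a test. The gene of PU.1 itself, SPI1, was at 6.41, 5.92 and 6.03 in MCF10A and at 6.33, 6.10 and 6.08 in MCF10A-SNAI1 cells, where the arrays overlapped (log2 fold change 0.052, 95% interval -0.28 to 0.38, adjusted p = 0.86 from limma). The TLR4 window held no match to CAGGTG, the E-box that SNAI1 binds, or to its reverse complement CACCTG. A match is a description of the letters and not a measured site. The motifs were chosen with the fold changes known.

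Of the co-receptors of TLR4, CD14 rose and LY96 did not pass. LY96, whose product MD-2 is needed for TLR4 to bind lipopolysaccharide, was at 2.83, 2.79 and 2.86 in MCF10A and at 3.12, 2.93 and 3.10 in MCF10A-SNAI1 cells. All 6 values were dim, although those of the MCF10A-SNAI1 line were the higher ones. The log2 fold change was 0.22 (95% interval 0.056 to 0.39), and the adjusted p of 0.0641 from limma did not pass. The table holds no detection calls, so whether LY96 was expressed in either line was not decided.

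CD14, which hands lipopolysaccharide to the TLR4 complex, was at 6.11, 5.70 and 5.79 in MCF10A and at 6.64, 6.87 and 7.17 in MCF10A-SNAI1 cells. Every array of MCF10A-SNAI1 was higher, but the spread within both lines was wider than for TLR4. CD14 rose 2.04-fold (log2 fold change 1.03, 95% interval 0.65 to 1.40, adjusted p = 0.00321 from limma), and the interval includes changes under 2-fold. The methods' t-test did not call it (adjusted p = 0.0368). It was also not called without MCF10A replicate 2 or 3 or without MCF10A-SNAI1 replicate 2 or 3, at log2 fold changes of 0.94, 0.98, 1.04 and 0.89. The 250 bases before its start in RefSeq (GRCh38.p14, chr5:140633176-140633425, minus strand) are given beside those of TLR4, the other gene that rose, with the PU box in capitals.
CD14: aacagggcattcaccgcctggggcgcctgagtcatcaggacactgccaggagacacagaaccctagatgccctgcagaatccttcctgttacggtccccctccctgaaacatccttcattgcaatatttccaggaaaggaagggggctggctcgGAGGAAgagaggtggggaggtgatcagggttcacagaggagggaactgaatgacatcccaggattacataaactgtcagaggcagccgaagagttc
This window had 1 match, 96 bases before the start, and no match to the SNAI1 E-box. The PU box also had 1 match in the window of TLR6, which was lower, and 1 in that of MYD88, which did not pass, 195 and 18 bases before their starts. The windows of TLR2, TLR3, TLR5 and IRAK2 had none.

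**Figure D2:**
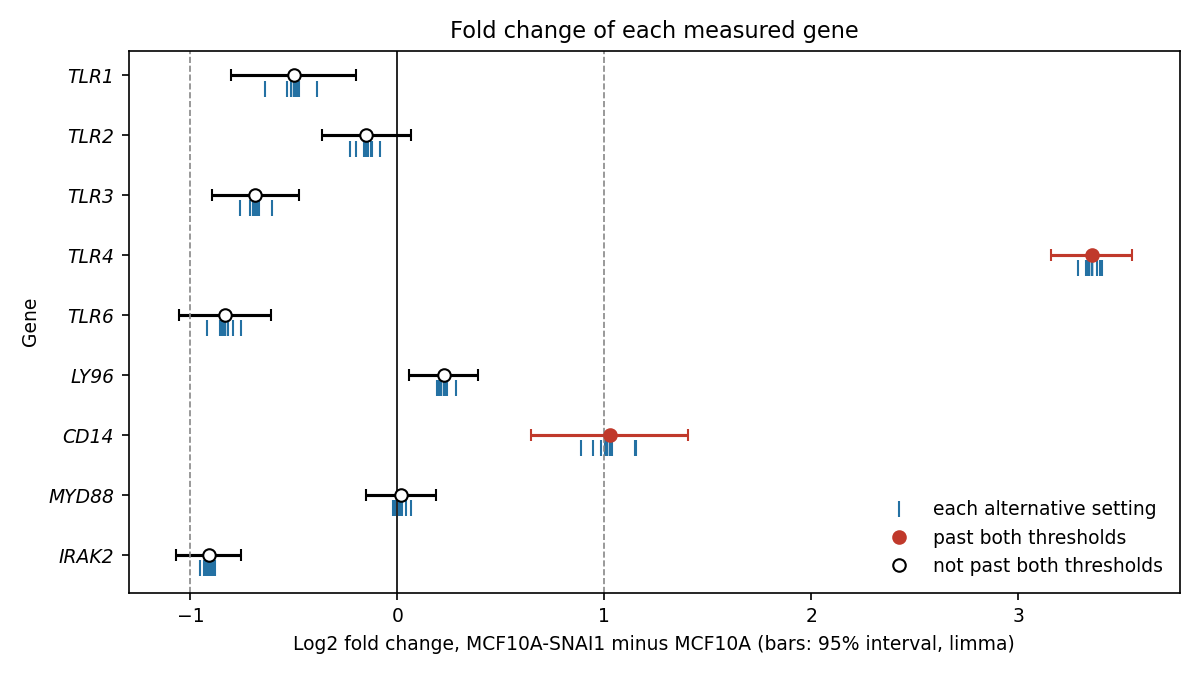
Log2 fold change of each measured gene, MCF10A-SNAI1 minus MCF10A, with its 95% interval from limma (bars), the values under the alternative settings (blue ticks) and the 2-fold limits (dashed). TLR4 lies at 3.35, CD14 straddles the upper limit, and the intervals of TLR6 and IRAK2 reach past the lower limit.

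Of the receptors that pair with TLR2, TLR6 was lower at an adjusted p below 0.01 and under 2-fold, and TLR1 did not pass. TLR6 was at 5.66, 5.76 and 5.64 in MCF10A and at 4.71, 4.83 and 5.03 in MCF10A-SNAI1 cells, without overlap (log2 fold change -0.83, 95% interval -1.06 to -0.61, adjusted p = 0.000725 from limma). TLR1 was at 4.22, 4.40 and 3.89 in MCF10A and at 3.73, 3.64 and 3.64 in MCF10A-SNAI1 cells. Its arrays did not overlap either, but 4 of the 6 values were dim, and the difference did not pass (log2 fold change -0.50, 95% interval -0.80 to -0.20, adjusted p = 0.0274 from limma). TLR1 and TLR6 are neighbouring genes in RefSeq and close relatives in sequence. How far their probe sets share signal was not tested.

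TLR2 itself was at 3.68, 3.53 and 3.67 in MCF10A and at 3.63, 3.46 and 3.35 in MCF10A-SNAI1 cells. All 6 values were dim and the lines overlapped (log2 fold change -0.15, 95% interval -0.37 to 0.064, adjusted p = 0.323 from limma). Among the measured genes with a promoter window, TLR2 was the only one whose 250 bases before the RefSeq start (GRCh38.p14, chr4:153684030-153684279, plus strand) held the E-box of SNAI1, CAGGTG or CACCTG, and the window is shown with that match in capitals.
TLR2: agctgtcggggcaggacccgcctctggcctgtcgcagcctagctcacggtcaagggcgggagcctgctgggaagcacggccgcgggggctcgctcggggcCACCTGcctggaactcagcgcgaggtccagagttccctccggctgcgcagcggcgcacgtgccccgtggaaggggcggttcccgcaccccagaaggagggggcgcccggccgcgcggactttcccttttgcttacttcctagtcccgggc
The match starts 150 bases before the start. Windows were found for 8 of the 10 genes, and TLR5, which is not analysed here, held the other match, 69 bases before its start. The E-box was present in 17.5% of all windows. No window of the 8 genes held a form of the NF-kB site (GGG, any pair of bases, then TTTCC, on either strand), which 1.73% of all windows did.

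TLR3, the endosomal receptor for double-stranded RNA, was at 6.85, 6.93 and 6.91 in MCF10A and at 6.05, 6.22 and 6.36 in MCF10A-SNAI1 cells. All arrays of MCF10A-SNAI1 were lower, and no value was dim. The difference was 1.61-fold (log2 fold change -0.69, 95% interval -0.89 to -0.48, adjusted p = 0.00128 from limma). TICAM1, the adaptor of TLR3, was likewise lower and under 2-fold, from 7.77 ± 0.146 to 7.21 ± 0.135 (SD over 3 arrays), a log2 fold change of -0.56 with a limma adjusted p of 0.00653. By the methods' t-test, TLR3, TLR6 and TICAM1 did not pass an adjusted p of 0.01 (adjusted p = 0.0143, 0.0115 and 0.0421). TICAM1 also did not pass with limma without MCF10A replicate 1 or 3 or without MCF10A-SNAI1 replicate 2 or 3 (adjusted p up to 0.0288).

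MYD88 was at 7.81, 7.70 and 7.77 in MCF10A and at 7.79, 7.86 and 7.68 in MCF10A-SNAI1 cells. The lines overlapped, and the log2 fold change was 0.018 with a 95% interval of -0.15 to 0.19 (adjusted p = 0.908 from limma). IRAK2, a kinase that sustains the signal from MYD88, was at 6.65, 6.73 and 6.70 in MCF10A and at 5.76, 5.87 and 5.72 in MCF10A-SNAI1 cells. Its arrays stood clearly apart, with a difference of 1.88-fold (log2 fold change -0.91, 95% interval -1.07 to -0.75, adjusted p = 9.35e-05 from limma). IRAK2 had adjusted p-values up to 0.00096 when each array was left out in turn, at log2 fold changes between -0.95 and -0.88. The difference was close to 2-fold and opposite in sign to that of TLR4.

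The rest of the pathway was described through 9 lists of 79 genes, of which 71 were measured, 4 were called higher, 10 lower and 57 were not called. A further 3 genes were higher and 13 lower with an adjusted p that passed but a difference under 2-fold. Of all 18417 genes, 3.1% were called higher and 2.54% lower. Another 1649 of all genes were higher and 1592 lower with a passing adjusted p and under 2-fold. The median log2 fold change of the 71 genes was -0.073. The called genes lay in 4 of the 9 lists, those of interleukin 1 family receptors, endogenous ligands, negative regulators and induced genes. Genes that passed the adjusted p but not the fold were less firm. Of these 16 genes and TLR3, TLR6 and IRAK2, 19 in all, 13 did not pass by the methods' t-test and 8 lost the adjusted p in at least 1 fit without 1 array.

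**Figure D3:**
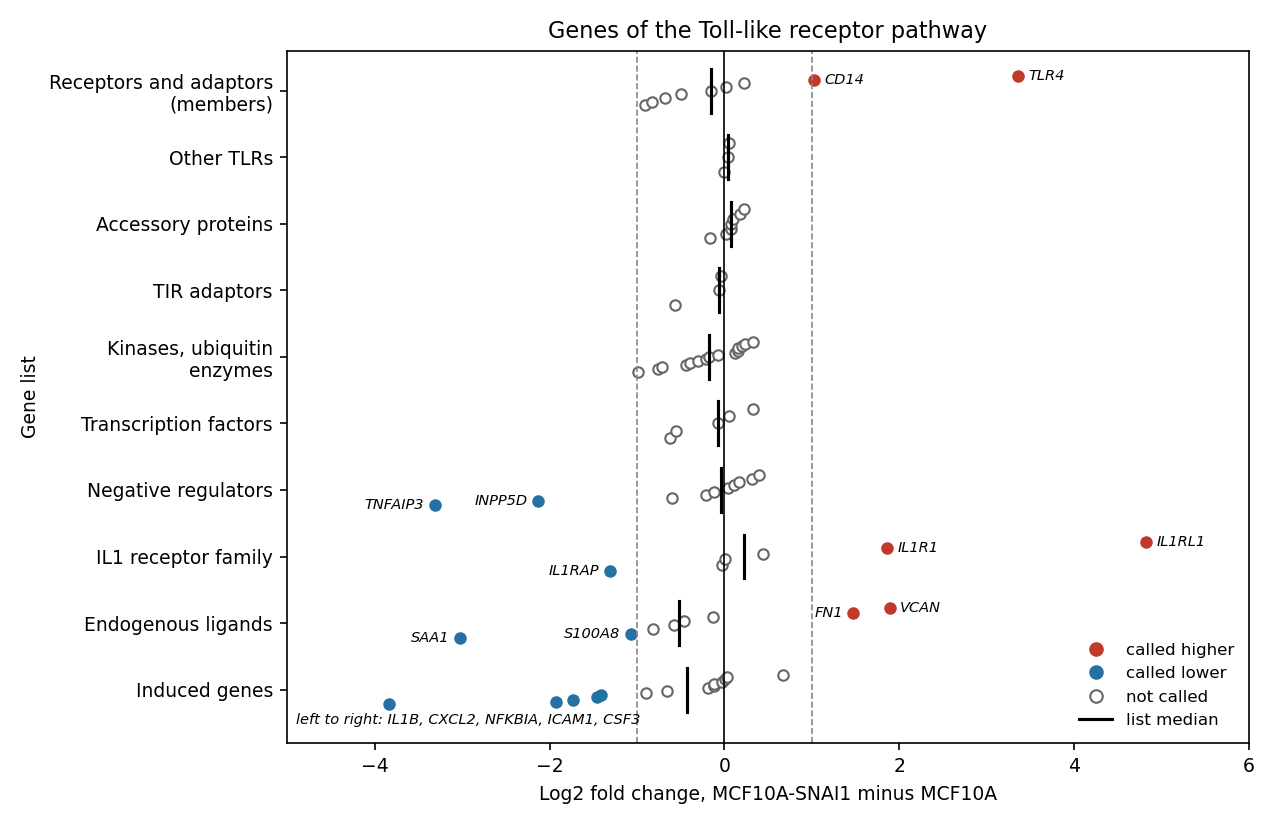
Log2 fold change of each measured gene by list, MCF10A-SNAI1 minus MCF10A, with called genes filled and named, list medians as black lines and the 2-fold limits dashed. TLR4 at 3.35 and IL1RL1 at 4.83 lie farthest to the right, and IL1B at -3.83 and TNFAIP3 at -3.32 farthest to the left.

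No other measured Toll-like receptor was called by limma, and none of the 3 reached an unadjusted p of 0.05. TLR7 and TLR8, endosomal receptors for single-stranded RNA, were dim on all arrays, at 2.93 to 3.09 and 3.41 to 3.83. TLR9, which binds unmethylated CpG DNA, was at 6.25 in both lines (log2 fold change -0.00092, 95% interval -0.17 to 0.17). The lines overlapped for all 3 genes. Of 7 measured accessory and trafficking proteins none was called, and 2 were higher at an unadjusted p below 0.05. That limit was passed as higher by 21% of all genes. HSP90B1, the chaperone that folds most Toll-like receptors, was at 12.22 and 12.45 (log2 fold change 0.23, limma adjusted p = 0.0363). UNC93B1, which moves endosomal receptors out of the endoplasmic reticulum, was at 8.83 and 8.67 (log2 fold change -0.16, limma adjusted p = 0.182). Its other 2 probe sets had -0.21 and -0.25 (limma adjusted p = 0.109 and 0.0193). Both of these reached an unadjusted p below 0.05 as lower, unlike the brightest one used in the counts. CD36, a co-receptor of TLR2 and TLR6, was dim on all arrays.

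Below the receptors, genes that differed were mostly lower and under 2-fold. Beside TICAM1, the adaptors TIRAP, which brings MYD88 to TLR2 and TLR4, and SARM1 had log2 fold changes of -0.057 and -0.040 (limma adjusted p = 0.61 and 0.754). Of 15 measured kinases and ubiquitin enzymes none was called by limma. An adjusted p of 0.01 was passed by 5 as lower and none as higher, beside 11.2% and 12.1% of all genes. An unadjusted p of 0.05 was passed by 8 lower and 3 higher genes of the 15, beside 21.3% and 21% of all genes. TAB3, which links polyubiquitin to the kinase TAK1, was at 8.31, 8.37 and 8.28 in MCF10A and at 7.39, 7.29 and 7.31 in MCF10A-SNAI1 cells. Its log2 fold change of -0.99 (adjusted p = 4.64e-05 from limma) lay just under the threshold, and it was called without MCF10A replicate 3 or without MCF10A-SNAI1 replicate 1, at -1.01 and -1.02. CHUK passed in no fit without 1 array (adjusted p up to 0.0366). IRAK1, an IRAK kinase below MYD88, had -0.76, the ubiquitin ligase PELI1 -0.71, and the kinases IKBKE and CHUK -0.43 and -0.39, all on the log2 scale. IRAK4 was not among the measured genes. TAB2, the relative of TAB3, had 0.33 (adjusted p = 0.0116) and TRAF6, the ubiquitin ligase below the IRAK kinases, 0.15 (adjusted p = 0.227).

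The 5 transcription factors were all under 2-fold, and none was called by limma or by the methods' t-test. NFKB1 and IRF5 were lower, with -0.56 and -0.63 on the log2 scale (limma adjusted p = 0.00064 and 0.00174), and IRF3, which acts below TICAM1, was higher at 0.33 (adjusted p = 0.00879). RELA and IRF7 had -0.077 and 0.048 (adjusted p = 0.453 and 0.792). IRF3 did not pass in any fit without 1 array (adjusted p up to 0.0341), with quantile normalization or by the methods' t-test (0.0151), and IRF5 did not pass by the methods' t-test (0.0162). An unadjusted limma p below 0.05 was reached by 1 of the 5 as higher and 2 as lower, beside 21% and 21.3% of all genes.

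Of 10 measured negative regulators, 2 fell and none rose, beside 2.54% and 3.1% of all genes. TNFAIP3, the ubiquitin-editing enzyme A20, was at 9.09, 9.27 and 9.03 in MCF10A and at 5.74, 5.86 and 5.85 in MCF10A-SNAI1 cells. INPP5D, the lipid phosphatase SHIP1, was at 8.99, 8.96 and 8.96 in MCF10A and at 7.03, 6.65 and 6.83 in MCF10A-SNAI1 cells (log2 fold change -2.14, 95% interval -2.37 to -1.90, adjusted p = 1.23e-05 from limma). Both genes separated the lines without overlap, as 48.3% of all genes did. The phosphatase PTPN6 was lower under 2-fold at -0.60 and the ubiquitin ligase RNF216 higher under 2-fold at 0.40 (adjusted p = 0.00182 and 0.00654 from limma). RNF216 passed in no fit without 1 array (adjusted p up to 0.0266), and PTPN6 did not pass without MCF10A replicate 2 (0.0101). The median of the list was -0.039.

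MYD88 is shared with the interleukin 1 receptor family, in which 2 of 6 genes rose and 1 fell, beside 3.1% and 2.54% of all genes. IL1RL1, the receptor for the alarmin IL33, had a log2 fold change of 4.83 and IL1R1 one of 1.86, whereas their common partner chain IL1RAP fell from 8.30, 8.31 and 8.39 in MCF10A to 6.99, 7.03 and 7.04 in MCF10A-SNAI1 cells. IL18R1 had 0.44 (adjusted p = 0.0112 from limma), and IL1RL2 and IL18RAP had 0.0084 and -0.026 (adjusted p = 0.976 and 0.869).

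The genes of proteins reported as endogenous ligands of TLR2 or TLR4 went both ways. Of 8 measured genes, 2 rose and 2 fell, and another 3 were lower under 2-fold. Among all 18417 genes, 3.1% were called higher, 2.54% were called lower and 1592 were lower under 2-fold. The matrix genes VCAN and FN1, for versican and fibronectin, rose by 1.89 and 1.47 on the log2 scale (limma adjusted p = 1.66e-05 and 9.07e-06). VCAN was at 6.91, 7.12 and 6.99 in MCF10A and at 8.76, 8.89 and 9.05 in MCF10A-SNAI1 cells. The acute-phase gene SAA1 fell by 3.03 on the log2 scale, and S100A8, a subunit of calprotectin, fell by 1.07 (adjusted p = 2.49e-06 and 0.000143 from limma). S100A9, the other subunit, was lower under 2-fold at -0.58, as were the matrix gene TNC at -0.82 and the chaperone HSPD1 at -0.46 (adjusted p = 0.00179, 0.00204 and 0.00313 from limma). HSPD1 lost this in 4 of the 6 fits without 1 array (adjusted p up to 0.016), and TNC without MCF10A replicate 3 (0.0101). SAA1 has a close relative in sequence, with which its probe set may share signal, and this was not tested.

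Of 14 measured genes that Toll-like receptors induce, 5 were called lower and none higher, beside 2.54% and 3.1% of all genes. The median log2 fold change was -0.42. The labels name no added ligand, so a response to one was not measured here. In the article's qRT-PCR, lipopolysaccharide or IL1 raised the mRNA of IL6 and IL8 (CXCL8) only in the MCF10A-SNAI1 line. The article adds, from unpublished data, that COX2 (PTGS2) and NOS2 did not change on interleukin stimulation. Its qRT-PCR of steady-state levels had TLR4, IL1R1 and IL1RL1 higher in that line, and IL1B, NFKBIA and TNFAIP3 lower. The adhesion gene ICAM1 was at 7.16, 6.95 and 7.06 in MCF10A and at 5.63, 5.57 and 5.60 in MCF10A-SNAI1 cells, and the neutrophil growth factor CSF3 at 10.73, 10.56 and 10.75 and at 9.36, 9.25 and 9.21. IL1B, the neutrophil attractant CXCL2 and the NF-kB inhibitor NFKBIA had log2 fold changes of -3.83, -1.93 and -1.74. CXCL1 was lower and PTGS2, the gene of cyclooxygenase 2, higher under 2-fold, at -0.90 and 0.67 (adjusted p = 0.0015 and 0.0074 from limma). PTGS2 lost this in 5 of the 6 fits without 1 array (adjusted p up to 0.0283). CXCL8 had -0.65 (adjusted p = 0.0144) and TNF -0.19 (adjusted p = 0.272). IL6 was at 3.98, 4.05 and 4.02 in MCF10A and at 4.13, 3.84 and 3.99 in MCF10A-SNAI1 cells, where the lines overlapped (log2 fold change -0.028, 95% interval -0.23 to 0.17, adjusted p = 0.875 from limma). For IL6, 1 of the 6 values was dim and the others lay just above that limit, so a difference could be hidden. CXCL1 and CXCL2 are close relatives in sequence, and how far their probe sets share signal was not tested.

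Because TLR4 and CD14 are also monocyte and macrophage genes, markers of those cells were examined beside them. Of 10 measured markers none was called by limma. At an unadjusted p below 0.05, 1 was higher and 1 lower, beside 21% and 21.3% of all genes. The mean of the list lay between 5.18 and 5.23 on the arrays of MCF10A and between 5.22 and 5.38 on those of MCF10A-SNAI1. PTPRC, the pan-leukocyte gene CD45, and LYZ were the 2 markers dim on all arrays. PTPRC was at 3.20 to 3.25 in MCF10A and at 3.18 to 3.26 in MCF10A-SNAI1 cells. AIF1, C1QA, ITGAM and TYROBP were dim on no array, with MCF10A means of 4.52, 5.64, 5.06 and 6.44, and the lines overlapped. The lysosomal gene CD68, which many cell types express, was higher under 2-fold, from 8.15 to 9.14 (log2 fold change 0.99, limma adjusted p = 8.86e-05). CSF1R had -0.43 (adjusted p = 0.103).

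The genes with profiles most like those of 3 members were found by the Euclidean distance between log2 values on the 6 arrays, each profile centred on its mean, among 18416 other genes. For TLR4 these were VGLL3, a cofactor of TEAD factors, RHOBTB3 and the hyaluronan synthase HAS2, at distances of 0.19, 0.22 and 0.23 and log2 fold changes of 3.45, 3.32 and 3.30. For IRAK2 they were the prohibitin gene PHB1, the exosome subunit EXOSC4 and the glycosyltransferase B3GNT5, at distances of 0.0493, 0.0521 and 0.0779 and log2 fold changes of -0.91, -0.91 and -0.95. For MYD88 they were DOK2, IDH3G and CCDC150, at distances of 0.0245, 0.0547 and 0.0548. Genes with differences between the lines of like size come out near each other by this measure.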

How the data were processed

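Total RNA of 3 MCF10A and 3 MCF10A-SNAI1 samples was measured on Affymetrix HuGene-1_0-st-v1 arrays. The table deposited by the authors holds log2 values of 33297 probe sets. GeneSpring GX with GC RMA appears in the article, and MAS5, GCOS and Affymetrix Expression Console 1.1 in the submitters' processing notes. The sources used here do not say which of them made the table. The values were used as deposited, with no filter. Gene names came from GEO's platform annotation: 19460 probe sets had 1 symbol, 1754 several and 12083 were unnamed here. The brightest probe set with 1 symbol gave 18417 genes.

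Lines were compared in R 4.3.3 with limma 3.58.1 (linear model, empirical Bayes, Benjamini-Hochberg over all probe sets), tested on simulated data. Intervals are 95% intervals from the same model. Alternatives were no fold threshold, the methods' t-test, quantile normalization, centring on array medians, a replicate block, leaving out each array, removing dim probe sets at either of 2 limits, an intensity trend with a robust prior, averaging a gene's probe sets, and adding probe sets with several symbols. Promoter windows, 250 bases before the start, came from RefSeq on GRCh38.p14, and 8 of 10 genes matched.

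Members and lists were chosen with earlier results of these data known. Named genes were all measured members, SNAI1, every measured gene of a list of 6 or fewer, up to 4 called genes per direction of other lists, and the 3 nearest profiles of TLR4, MYD88 and IRAK2. Other named genes were chosen after their values were seen, among them CSF3 and the marker genes.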

Additional observations from a re-analysis of the deposited data

How the results depend on the processing

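TLR4, SNAI1 and the pathway genes that were called kept their direction and their call in each alternative in which they were tested. The count of called members, 2, was 1 with the methods' t-test and 1 with the replicate block, where CD14 was not called (log2 fold change 1.03, adjusted p = 0.0174), and between 1 and 2 when each array was left out. Without a fold threshold it was 5, and the count over the pathway lists was 30, of which 7 were higher and 23 lower, against 14 with it. With each array left out the latter count lay between 14 and 15. Replicate numbers did not pair the samples: the deviations of samples with the same number correlated at 0.12, 0.12 and -0.0062, and 4 of 6 arrays correlated best with their own number. The block changed no other call past both thresholds. Of the 19 genes past the adjusted p alone, 6 lost it with the replicate block, IRF3, IRF5, CHUK, RNF216, PTGS2 and TNC (adjusted p from 0.0107 to 0.0288). Genes near 0 changed sign. IL1RL2 was at -0.0030 with arrays centred on their medians. With each array left out, MYD88 lay between -0.023 and 0.065, TLR8 between -0.055 and 0.17, TLR9 between -0.050 and 0.057, IRF7 between -0.029 and 0.10, IL1RL2 between -0.13 and 0.10, IL18RAP between -0.063 and 0.027, and IL6 between -0.10 and 0.046. The filters on dim probe sets removed TLR1, TLR2 and LY96, and the filter at the median also TLR6 and, among the called pathway genes, S100A8, which then have no value. The latter filter left 13 called pathway genes. The number of arrays and the unvaried background correction limit what can be said of dim genes.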

Other observations

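Of 10 measured fibroblast and mesenchymal markers, 4 were called higher and none lower in MCF10A-SNAI1 cells, beside 3.1% and 2.54% of all genes. The methods' t-test called 3 of them, without LUM (adjusted p = 0.0282). The matrix genes DCN, COL3A1, COL1A1 and LUM had log2 fold changes of 8.26, 5.14, 2.57 and 1.53. DCN and LUM were dim on all arrays of MCF10A. The protease gene FAP was lower without overlap at -0.42 and did not pass (adjusted p = 0.0159 from limma). The surface marker THY1 and the receptor PDGFRA had 0.076 and 0.27 (adjusted p = 0.692 and 0.0354 from limma). VIM, which encodes the intermediate filament vimentin, was at 11.62 and 11.67 (log2 fold change 0.058, adjusted p = 0.601 from limma). Of 5 endothelial markers, PECAM1, CDH5, VWF, KDR and TEK, none was called by limma, none reached an unadjusted p of 0.05, and the lines overlapped for all 5.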
